A study of Homo sapiens with 8 samples.

Results

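Translation of mRNA is carried out by a conserved set of initiation, elongation and release factors, and the mRNA levels of these factors were examined in a leukemia cell line treated with an immunoproteasome inhibitor. The set held 52 genes of 38551 gene rows, chosen by name, and fell into 10 scanning and start-site factors, 8 subunits of eIF2 and eIF2B, 12 subunits of eIF3, 12 eIF4 factors with their binding proteins, 7 elongation genes and 3 genes of termination and recycling. The cells were MOLM-13, a human line of acute myeloid leukemia with a KMT2A fusion. Cells received either 100 nM PR-957 (also called ONX-0914), an inhibitor of the immunoproteasome subunit PSMB8, or DMSO as diluent, for 72 h in both groups. Each group held 4 libraries of polyA RNA from the same line, with no genetic change between the groups, so the comparison rests on a single line and a single dose and time.

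During initiation, eIF2 bound to GTP brings the initiator tRNA to the small ribosomal subunit, and eIF2B recycles eIF2 for the next round. The eIF4 factors bind the mRNA cap and unwind the leader, eIF3 holds the initiation complex together, and the elongation factors eEF1A and eEF2 then deliver aminoacyl-tRNA and move the ribosome along. The mRNAs of many of these factors begin with a C followed by a run of pyrimidines, a terminal oligopyrimidine (TOP) start, through which mTOR signalling controls their translation and stability.

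Total counts ran from 16675036 to 23111223 per library. Among the tested genes 6143 of 13179 differed between PR-957 and DMSO at an adjusted p under 0.05, which is 46.6% of them, with 3045 higher and 3098 lower. Scaling by library totals alone shifted this split to 4066 higher and 2353 lower and moved the median log2 fold change of all genes from 0.00 to 0.08. DMSO replicate 4 stood apart from its group, with a chi-square per gene of 10.3 to 15.5 against the other DMSO libraries. These differed from each other by 3.29 to 5.79. DMSO replicate 4 was also the deepest library, and this measure grows with depth. PR-957 replicate 4 differed by 9.10 and 8.18 from PR-957 replicates 1 and 2 and by 5.48 from replicate 3. PR-957 replicates 1 to 3 differed from each other by 4.42 to 6.41. All 10 myeloid markers reached a mean of 1 CPM (counts scaled to a common library size), whereas 0 of 7 lymphoid and erythroid markers did and CD3E was at 0 in every library. The summed level of the myeloid markers ran from 1461 to 1554 CPM in DMSO libraries and from 2214 to 2479 CPM in PR-957 libraries. This sum does not give the direction of single markers. The list includes FLT3, HOXA9 and MEIS1, and the paper reports FLT3, MEIS1 and HOXA-cluster genes as lower after PR-957. COL1A1 and PECAM1 were the only 2 of 5 genes listed for other tissues at a mean of 1 CPM or more. PECAM1 is not specific to other tissues. The list summed to between 43.8 and 64.5 CPM in DMSO and between 83.7 and 86.8 CPM in PR-957 libraries. The part of these shifts in the results below was not tested. In bulk RNA, fewer cells of a type and less RNA per cell cannot be told apart.

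Translation factor mRNAs moved in both directions after PR-957. Of 49 members that passed the filter on low counts, 15 passed an adjusted p of 0.05 as higher and 21 as lower. Of all tested genes 23.1% were higher and 23.5% lower. Abundant genes were called more often. Among 2127 tested genes with a mean log2 CPM of at least 6.49, 32.1% were called higher and 31.9% lower. Some members lie below that level. Whether members were called more often than genes of like abundance was not tested, and the same holds for the groups of members below. The median log2 fold change of the tested members was -0.08, beside 0.00 over all tested genes. Most changes were small. Only 5 of the 49 members were called with a change of at least 1.5-fold, beside 13.8% of all tested genes, and EIF4EBP1 was the only member called with a change of 2-fold or more. The DMSO and PR-957 libraries did not overlap for 33 of the 49 members, beside 42.5% of tested genes. Without DMSO replicate 4, 13 members were called higher and 23 lower, and with library totals alone 19 were higher and 18 lower.

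**Figure D1:**
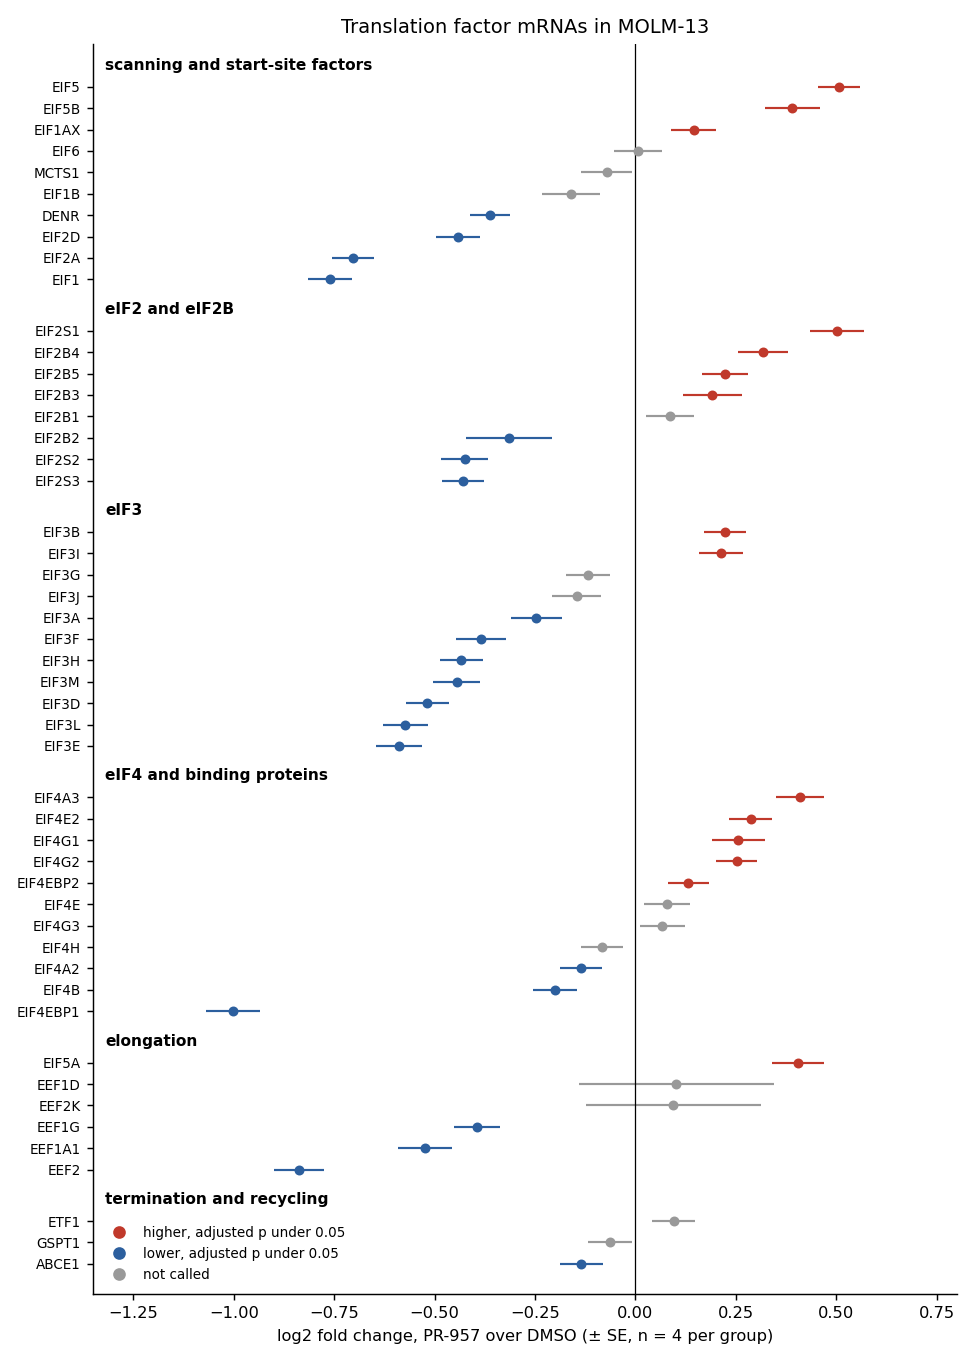
Log2 fold change of PR-957 over DMSO on the horizontal axis for the 49 tested members, by functional group, with bars for the standard error and 4 libraries per group. Red and blue points passed an adjusted p of 0.05 and gray points did not. EIF4EBP1 at -1.0 and EEF2 at -0.84 lie farthest to the left, and EIF5 at 0.51 and EIF2S1 at 0.50 farthest to the right.

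The remaining 3 members could not be measured in these counts. EIF4A1, the main helicase of the cap-binding complex, had 0 counts in all 8 libraries. The whole of its annotated exon sequence is shared on the same strand with the readthrough gene SENP3-EIF4A1, and fragments that fall on more than 1 gene were not counted. EIF3K was also at 0 in every library, and EEF1B2 had between 0 and 2 counts, and both genes are placed a second time on an alternate or patch sequence of the genome. The same holds for EEF1D and EEF2K, which passed the filter with 1.82 to 3.86 CPM and 1.77 to 2.42 CPM. For these 5 genes the level is unknown rather than low.

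The first bases of the transcripts are shown because the direction of change differed with them. RefSeq start windows were found for 44 members, of which 41 were tested. None was found for EIF2S2, EIF3A, EIF3E, EIF3G, EIF3H, EIF3L, EIF4EBP1 and EEF1D, so these have no start class. A pyrimidine start was taken as a C at the first transcribed base followed by at least 4 further C or T bases, and 10 tested members had it: EIF2A, EIF2D, EIF2S3, EIF3D, EIF3F, EIF3M, EIF4A2, EIF4B, EEF1A1 and EEF2. The lines below give 30 bases of GRCh38.p14 from RefSeq on the strand of the gene, with 15 bases before the annotated start and 15 from it onward, and capitals mark the pyrimidine run at the start.
EEF2 (chr19:3985449-3985478, minus strand): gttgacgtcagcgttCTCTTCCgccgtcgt
EEF1A1 (chr6:73521018-73521047, minus strand): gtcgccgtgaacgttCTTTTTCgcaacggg
EIF2A (chr3:150546772-150546801, plus strand): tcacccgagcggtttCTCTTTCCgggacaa
EIF2D (chr1:206612451-206612480, minus strand): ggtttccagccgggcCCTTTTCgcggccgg
EIF2S3 (chrX:24054941-24054970, plus strand): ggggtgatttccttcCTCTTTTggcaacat
EIF3D (chr22:36529152-36529181, minus strand): gcgcgcgcatgtttcCTCTTTTCCTggttt
EIF3F (chr11:7987322-7987351, plus strand): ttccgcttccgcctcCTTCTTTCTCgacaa
EIF3M (chr11:32583816-32583845, plus strand): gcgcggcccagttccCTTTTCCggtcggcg
EIF4A2 (chr3:186783562-186783591, plus strand): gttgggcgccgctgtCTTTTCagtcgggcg
EIF4B (chr12:53006441-53006470, plus strand): ttgcctcatccgggtCTTTTgcgttctctt

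For contrast, the next lines give the same window of 4 members that rose after PR-957 and have no pyrimidine run at the annotated start. These 4 were picked because they rose. Members that fell without the run, such as EIF1, DENR and EEF1G, are named below but their windows are not printed.
EIF2S1 (chr14:67360313-67360342, plus strand): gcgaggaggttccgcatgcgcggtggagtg
EIF5 (chr14:103334222-103334251, plus strand): gcggcggcgttgttcagtcagagcgagaac
EIF5B (chr2:99337374-99337403, plus strand): gcgcactgagaactcacaccatatgtgtcc
EIF4A3 (chr17:80147114-80147143, minus strand): gttctcggcagcggcacagcgaggtcggca

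All 10 tested members with a pyrimidine start were lower after PR-957 and 0 were higher, with a median of -0.44 on the log2 scale and a range from -0.84 to -0.13. Of the 31 tested members with another start, 5 were lower and 15 higher, with a median of 0.09. The 5 lower members with another start were EIF1, DENR, EIF2B2, EEF1G and ABCE1. Some alternative fits lost the call on EIF4A2 or EIF4B, which have the pyrimidine start. Among members with another start, the calls on EIF1AX, EIF2B3, EIF4EBP2, EIF2B2 and ABCE1 were lost in some fits. EEF1G is on the list of classical TOP mRNAs read below, although its annotated start lacks the run. Of the tested members without a window, EIF2S2, EIF3A, EIF3E, EIF3H, EIF3L and EIF4EBP1 were lower, and EIF3G and EEF1D were not called. All 15 members called higher had a window. The start also went with direction over all tested genes, and with the members left out. Among all 9912 tested genes with a window, 38.5% of 746 genes with a pyrimidine start were lower and 15.5% higher, beside 22.4% lower and 25.0% higher of 9166 genes with another start. With members and cytosolic ribosomal protein genes left out, 34.2% of 691 genes with a pyrimidine start were lower and 16.5% higher, beside 22.3% and 24.9% of those with another start. Of 45 tested ribosomal protein genes with the start, 91.1% were lower and 4.44% higher, beside 14 lower and 5 higher of 20 with another start. The medians of these ribosomal protein genes hardly differed by start, at -0.39 with it and -0.37 without it. Members with the start were also more abundant, with a median of 8.71 mean log2 CPM against 7.39 for those without. At or above the lowest level of the former, 21 members with another start were measured, of which 4 were lower and 10 higher. Among 2127 tested genes at or above this level, 31.9% were lower and 32.1% higher.

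**Figure D2:**
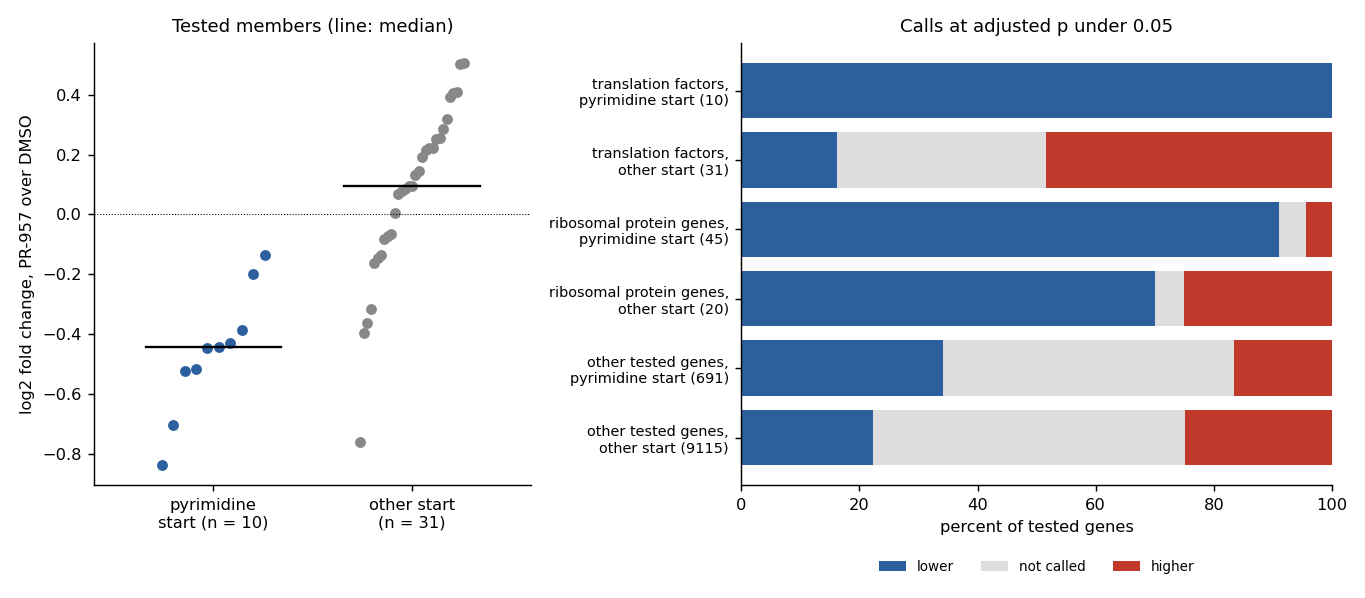
Left, log2 fold change of PR-957 over DMSO for the 10 tested members with a pyrimidine start and the 31 with another start, each point a gene and the line the median. Right, percent of tested genes called lower, not called or higher at an adjusted p of 0.05, by start, for members, ribosomal protein genes and other tested genes. Every member with a pyrimidine start lies below 0, and the other members lie on both sides.

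An annotated start is not a measured start, and a shift of a single base changes the class. For EIF2A, EIF2D and EIF3M the counted gene model begins upstream of the start shown, so their class depends on the annotation. For EIF3M that model begins at the first printed base, a g, which is not a pyrimidine. When only 2 further pyrimidines were required, EIF4E2, which rose, joined the class, giving 10 lower and 1 higher. With at least 5 further pyrimidines 9 of 9 members were lower, and with at least 6 it was 8 of 8. A second motif was read for comparison. The E-box CACGTG, the binding sequence of MYC and MAX, which reads the same on both strands, was present in the 300 bases around the start in 9 of 41 tested members (22.0%), beside 12.8% of all tested genes. Of these 9 members, 3 were higher and 2 lower, beside 24.6% higher and 25.1% lower of the 1265 tested genes with the motif.

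Scanning and start-site factors guide the small ribosomal subunit to the start codon and join the large subunit. Of these 10 genes 3 were higher and 4 lower, beside 23.1% and 23.5% of all tested genes. Their median was -0.12 on the log2 scale. EIF1, which keeps the scanning complex open until a start codon is found, measured 916, 843, 932 and 902 CPM in DMSO replicates 1 to 4 and 536, 509, 541 and 535 CPM in PR-957 replicates 1 to 4, an order kept for every gene below. Its log2 fold change was -0.76 ± 0.054 (SE, adjusted p = 1.46e-09), and every PR-957 library lay below every DMSO library. EIF2A, a factor that can bring initiator tRNA to the ribosome without eIF2, measured 196, 207, 200.4 and 202 CPM under DMSO and 119, 131, 123 and 122 CPM under PR-957. It fell by 0.70 ± 0.052 on the log2 scale (adjusted p = 2.1e-09), again without overlap. EIF2D fell from 104 ± 3.13 to 76.4 ± 3.74 CPM (SD, n = 4), and DENR, which acts with MCTS1 in reinitiation and ribosome recycling, from 205 ± 5.2 to 159.7 ± 2.77 CPM. MCTS1 itself did not pass the test, at 57.3 ± 4.27 CPM under DMSO and 54.5 ± 1.68 CPM under PR-957.

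Among the scanning and start-site factors that rose were EIF5 and EIF5B. EIF5, which makes eIF2 hydrolyse its GTP, measured 131, 139, 135 and 143 CPM under DMSO and 189, 192, 198 and 199.6 CPM under PR-957. This was a log2 fold change of 0.51 ± 0.052 (adjusted p = 2.13e-07) with no overlap. EIF5B, the GTPase that joins the large subunit, measured 524, 484, 514 and 451 CPM under DMSO and 610.3, 581, 696 and 699.8 CPM under PR-957. It rose by 0.39 ± 0.068 (adjusted p = 0.000106), and in PR-957 replicates 3 and 4 it was higher than in replicates 1 and 2. EIF1AX, the partner of EIF1 in scanning, rose by 0.14 (adjusted p = 0.0395), but it gave 0.05 in replicates 1 and 2 alone (adjusted p = 0.553). EIF6, which keeps the large subunit from joining too early, measured 113, 101, 118 and 107 CPM under DMSO and 119, 108, 109 and 103 CPM under PR-957, which overlap (adjusted p = 0.944).

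The call on EIF1AX also depended on single libraries. Leaving out DMSO replicate 1, 2, 3 or 4 gave adjusted p-values of 0.0537, 0.0879, 0.0586 and 0.06, and leaving out PR-957 replicate 3 or 4 gave 0.141 and 0.115, with log2 fold changes from 0.12 to 0.16. With all genes kept the adjusted p was 0.0747. EIF1B, a close copy of EIF1 from another gene, was not called, at -0.16 (adjusted p = 0.073), but without PR-957 replicate 1 it was -0.25 (adjusted p = 0.00436), and in replicates 3 and 4 alone -0.30 (adjusted p = 0.0132). A term for replicates 1 and 2 against 3 and 4 gave -0.16 (adjusted p = 0.0478), and a replicate block -0.17 (adjusted p = 0.0252).

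In the trimeric factor eIF2 the subunits moved in opposite directions. EIF2S1, the alpha subunit that stress kinases phosphorylate, measured 63.0, 70.6, 69.9 and 66.2 CPM under DMSO and 86.6, 90.3, 97.7 and 107 CPM under PR-957. It was higher by 0.50 ± 0.067 on the log2 scale (adjusted p = 5.56e-06), and no library of either group overlapped. EIF2S2, the beta subunit, measured 626, 575, 599 and 528 CPM under DMSO and 439, 428, 447 and 419.9 CPM under PR-957, a log2 fold change of -0.42 ± 0.058 (adjusted p = 7.44e-06). EIF2S3, the gamma subunit that binds GTP and the initiator tRNA, measured 769, 752, 773 and 726 CPM under DMSO and 536, 551, 575 and 579.5 CPM under PR-957. It fell by 0.43 ± 0.053 (adjusted p = 2.15e-06), and both subunits were lower in every PR-957 library than in any DMSO library. Per kb of annotated exon, EIF2S1 was the least abundant of the 3 subunits in both groups, at 16.2 CPM per kb in DMSO against 196 for EIF2S2 and 218 for EIF2S3, and at 23 against 146 and 162 in PR-957 libraries.

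The subunits of eIF2B, the exchange factor of eIF2, changed less. EIF2B4 and EIF2B5 belong to its regulatory and catalytic parts, respectively. EIF2B4 measured 33, 33.2, 35.9 and 32.6 CPM under DMSO and 42.0, 41.4, 43.1 and 41.2 CPM under PR-957, and rose by 0.32 ± 0.063 on the log2 scale (adjusted p = 0.000358). EIF2B5 measured 77.9, 78.7, 78.1 and 71.2 CPM under DMSO and 93.3, 87.1, 84.0 and 92.3 CPM under PR-957, and rose by 0.22 ± 0.058 (adjusted p = 0.00361). Neither overlapped between the groups. EIF2B1 was not called at 0.09 (adjusted p = 0.259), except with library totals alone, where it was 0.16 (adjusted p = 0.0187). Over eIF2 and eIF2B together 4 of 8 genes were higher and 3 lower, beside 23.1% and 23.5% of all tested genes. Their median log2 fold change was 0.14, and 0.083 without DMSO replicate 4.

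The calls on EIF2B3 and EIF2B2 were less firm, and the groups overlapped for both. EIF2B3, a partner of EIF2B5 in catalysis, was higher by 0.19 (adjusted p = 0.0413). The call was lost with DESeq2 (adjusted p = 0.0552), in replicates 1 and 2 alone (0.0899), in replicates 3 and 4 alone (0.16), and on leaving out DMSO replicate 2 (0.0609) or 4 (0.143) or PR-957 replicate 1 (0.0939), 2 (0.094) or 3 (0.0921). Its log2 fold change was 0.12 once DMSO replicate 4 was left out. EIF2B2, a regulatory subunit and the least abundant gene of this group at 15.2 ± 2.16 CPM in DMSO, was lower by 0.31 (adjusted p = 0.0207). That call was lost with library totals alone (adjusted p = 0.0699), in replicates 3 and 4 alone (0.158), and on leaving out DMSO replicate 1 (0.0526), 2 (0.05) or 3 (0.0815) or PR-957 replicate 3 (0.0515). Without DMSO replicate 3 it was -0.25.

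**Figure D3:**
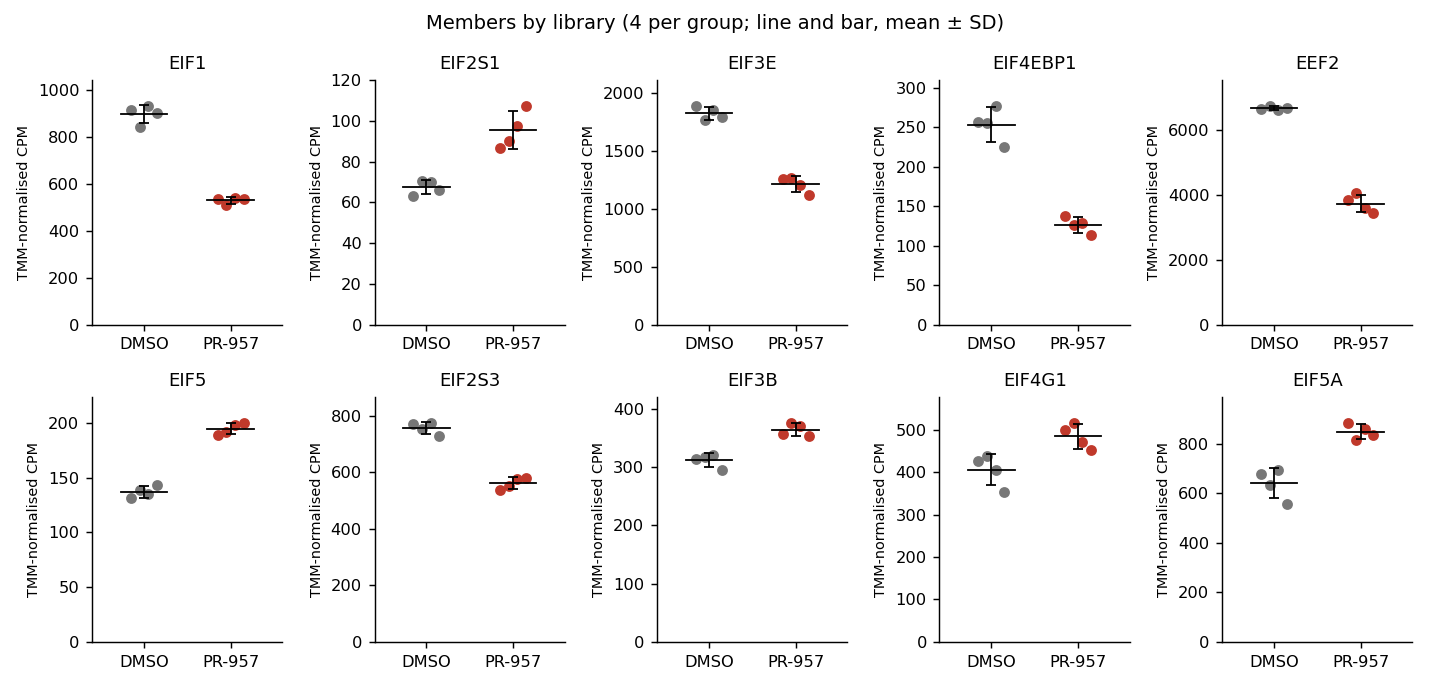
TMM-normalised CPM (vertical axis, from 0) of 10 members in each of the 4 DMSO libraries (gray) and 4 PR-957 libraries (red), with the mean and SD in black. In each panel the groups do not overlap: EIF1, EIF2S3, EIF3E, EIF4EBP1 and EEF2 were lower in all PR-957 libraries, and EIF5, EIF2S1, EIF3B, EIF4G1 and EIF5A were higher.

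The eIF3 complex, the largest of the initiation factors, was the group with most decreases. Of 11 tested subunits 7 were lower and 2 higher, beside 23.5% and 23.1% of all tested genes. Their median log2 fold change was -0.39, beside 0.00 for all tested genes. EIF3E measured 1892, 1768, 1857 and 1800.2 CPM under DMSO and 1257, 1272, 1212 and 1125 CPM under PR-957, a log2 fold change of -0.59 ± 0.057 (adjusted p = 1.06e-07). EIF3L measured 633, 639, 674 and 646 CPM under DMSO and 442, 470.2, 415 and 415 CPM under PR-957, a log2 fold change of -0.57 ± 0.056 (adjusted p = 1.13e-07). Both were lower in each of the 4 PR-957 libraries than in any DMSO library. EIF3D, which can bind the cap of some mRNAs, fell by 0.52, EIF3M by 0.45, EIF3H by 0.43, EIF3F by 0.39 and EIF3A, the scaffold of the complex, by 0.25. In replicates 3 and 4 alone EIF3A was -0.18 and not called (adjusted p = 0.0885).

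The 2 subunits that rose were EIF3B and EIF3I, which with EIF3G form a mobile module apart from the core of the complex, a grouping made here after the values were seen. EIF3B measured 315, 318, 321 and 295 CPM under DMSO and 357, 376, 371 and 353 CPM under PR-957, and was higher by 0.22 ± 0.052 (adjusted p = 0.00156). EIF3I measured 257, 235, 253 and 224 CPM under DMSO and 289, 273, 283 and 279 CPM under PR-957, and was higher by 0.21 ± 0.055 (adjusted p = 0.00351). Neither gene overlapped between the groups. EIF3G stood at -0.12 (adjusted p = 0.0807) and EIF3J, a loosely bound subunit, at -0.15 (adjusted p = 0.0563). EIF3G was called lower without DMSO replicate 4 (-0.14, adjusted p = 0.0341) or PR-957 replicate 1 (-0.16, adjusted p = 0.0261), and with a replicate block (adjusted p = 0.0342). EIF3J was called lower with DESeq2 (adjusted p = 0.0429), with all genes kept (0.0474), with a replicate block (0.0195), with a term for replicates 1 and 2 against 3 and 4 (0.0374), in replicates 1 and 2 alone (0.00568), and without DMSO replicate 4 (-0.19, adjusted p = 0.00574) or PR-957 replicate 4 (-0.17, adjusted p = 0.0355).

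Per kb of annotated exon, EIF3E stood highest among the tested eIF3 subunits in both groups, at 759 CPM per kb in DMSO and 505 in PR-957 libraries, and EIF3F lowest, at 54.6 and 41.8. These lengths are merged over all annotated transcripts, which lowers the value of genes with a long rare exon.

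In the eIF4 group, which binds the mRNA cap, EIF4EBP1 had the largest change of all members. It encodes the repressor that holds eIF4E away from eIF4G until mTOR phosphorylates it. EIF4EBP1 measured 256, 256, 277 and 224 CPM under DMSO and 137, 126, 128 and 114 CPM under PR-957. This was a log2 fold change of -1.0 ± 0.068 (adjusted p = 1e-09), a drop of the mean from 253 ± 21.6 to 126 ± 9.83 CPM (SD, n = 4) with no overlap. EIF4EBP2, its paralog, measured 158, 165, 159 and 157 CPM under DMSO and 169, 184, 174 and 172 CPM under PR-957, a log2 fold change of 0.13 ± 0.051 (adjusted p = 0.0404). EIF4E, the cap-binding protein itself, measured 68.0, 76.0, 77.7 and 72.6 CPM under DMSO and 78.0, 80.5, 74.0 and 78.3 CPM under PR-957. It was not called (0.08 ± 0.058, adjusted p = 0.279), and the groups overlapped. With library totals alone it was 0.16 (adjusted p = 0.0329).

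Ratios within each library do not depend on scaling. The log2 ratio of EIF4EBP1 to EIF4EBP2 counts was 0.70, 0.64, 0.80 and 0.51 in DMSO and -0.30, -0.55, -0.44 and -0.60 in PR-957 libraries, a difference of -1.13 (exact permutation test, two-sided, p = 0.0286, adjusted p = 0.04 over 7 ratios). That p is the smallest that 4 against 4 libraries allow. Per length, EIF4EBP1 was 14.3 times as abundant as EIF4EBP2 in DMSO and 6.54 times in PR-957 libraries. The log2 ratio of EIF4EBP1 to EIF4E was 1.91, 1.75, 1.83 and 1.63 in DMSO and 0.82, 0.64, 0.80 and 0.54 in PR-957 libraries, a difference of -1.08 (exact permutation test, p = 0.0286, adjusted p = 0.04). In both ratios every PR-957 library was below every DMSO library.

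EIF4E2, a cap-binding relative that represses translation of its targets, measured 72.2, 76.4, 77.8 and 73.6 CPM under DMSO and 92.4, 92.8, 87.8 and 92.9 CPM under PR-957. It was higher by 0.29 ± 0.053 (adjusted p = 0.000215) without overlap. The log2 ratio of EIF4E to EIF4E2 fell from a mean of -0.03 ± 0.0392 to -0.24 ± 0.0211 (SD, n = 4), a difference of -0.21 (exact permutation test, p = 0.0286, adjusted p = 0.04). EIF4G1, the scaffold that joins the cap to the ribosome, measured 426, 437, 406 and 354 CPM under DMSO and 500.1, 516, 471 and 451 CPM under PR-957, and was higher by 0.26 ± 0.066 (adjusted p = 0.0034). EIF4G2, a relative that lacks the eIF4E-binding part, rose from 648 ± 18.8 to 772 ± 16.3 CPM (adjusted p = 0.000531). EIF4G3 was not called, at 0.07 (adjusted p = 0.336), although it was with library totals alone (0.15, adjusted p = 0.0392). The log2 ratio of EIF4G1 to EIF4G2 differed by 0.01 (exact permutation p = 0.943), and that of EIF4G1 to EIF4G3 by 0.19 (exact permutation p = 0.0571, adjusted p = 0.0667). Neither difference passed the test.

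EIF4A3, an RNA helicase of the exon junction complex rather than of cap-dependent initiation, measured 125, 114, 119 and 103 CPM under DMSO and 160.1, 151, 152 and 149 CPM under PR-957, a log2 fold change of 0.41 ± 0.06 (adjusted p = 1.69e-05). EIF4B, a cofactor of the helicase, measured 1329.8, 1359, 1427 and 1394 CPM under DMSO and 1150.4, 1252, 1191 and 1203 CPM under PR-957. It was lower by 0.20 ± 0.054 (adjusted p = 0.00492), and both genes separated the groups. In replicates 1 and 2 alone EIF4B was -0.16 (adjusted p = 0.0739). EIF4H, a related cofactor, was not called at -0.08 (adjusted p = 0.207). Over the eIF4 group 5 of 11 tested genes were higher and 3 lower, beside 23.1% and 23.5% of all tested genes. Their median was 0.08.

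EIF4A2, a paralog of EIF4A1, was lower by 0.13 (adjusted p = 0.0395), with 437 to 483 CPM in DMSO and 409.7 to 426 CPM in PR-957 libraries. The call was lost with library totals alone (-0.06, adjusted p = 0.338), with all genes kept (0.0741), in replicates 3 and 4 alone (0.276), and on leaving out DMSO replicate 1 (0.0794), 2 (0.119) or 3 (0.0706) or PR-957 replicate 2 (0.064) or 3 (0.122). EIF4EBP2 no longer passed when all genes were fitted unfiltered (adjusted p = 0.114), in replicates 1 and 2 alone (0.0995), in replicates 3 and 4 alone (0.204), and on leaving out DMSO replicate 1 (0.0921) or 3 (0.0808) or PR-957 replicate 2 (0.125), 3 (0.0818) or 4 (0.0502). The log2 fold changes in these fits ran from 0.11 to 0.14 for EIF4EBP2 and from -0.14 to -0.06 for EIF4A2.

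**Figure D4:**
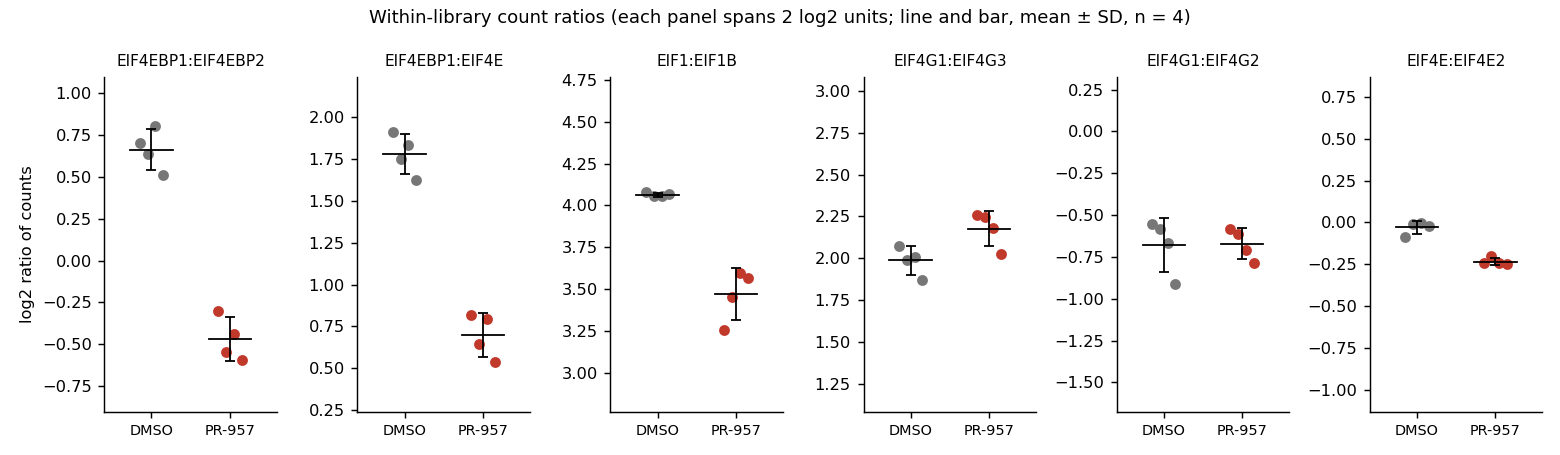
Log2 ratio of the counts of 2 members within the same library, for 6 pairs, in DMSO (gray) and PR-957 (red) libraries, with the mean and SD in black. Each vertical axis spans 2 log2 units around its own center. The ratios of EIF4EBP1 to EIF4EBP2 and to EIF4E lie about 1 unit lower in PR-957 libraries, and the ratio of EIF4G1 to EIF4G2 overlaps between the groups.

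The elongation factors held the most abundant members. Of 6 tested, 3 were lower and 1 higher, beside 23.5% and 23.1% of all tested genes. EEF2, the translocase that moves the ribosome by a codon, measured 6651, 6731, 6593 and 6669 CPM under DMSO and 3829, 4046, 3605 and 3428 CPM under PR-957. Its log2 fold change was -0.84 ± 0.062 (adjusted p = 2.21e-09). EEF1A1, which delivers aminoacyl-tRNA, measured 37233, 35481, 37375 and 37241 CPM under DMSO and 26652, 27677, 25203 and 22962 CPM under PR-957, and fell by 0.52 ± 0.068 (adjusted p = 3.89e-06). All PR-957 libraries were below all DMSO libraries for both genes, and the spread among PR-957 libraries was wider, with an SD of 268 CPM for EEF2 against 56.8 in DMSO. EEF1G, a subunit of the exchange factor of eEF1A, went from 3969 ± 137 to 3018 ± 131 CPM, which is -0.39 on the log2 scale (adjusted p = 1.57e-05). EEF1A1 and EEF1G have processed pseudogenes, and fragments that map to several places were not counted, so their absolute levels are uncertain.

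EIF5A went the opposite way. It carries the amino acid hypusine, made by DHPS and DOHH, and helps ribosomes past difficult peptide bonds. EIF5A measured 679, 633, 697 and 559 CPM under DMSO and 884, 814, 862 and 838 CPM under PR-957, and was higher by 0.40 ± 0.065 on the log2 scale (adjusted p = 4.52e-05) with no overlap. EEF2K, the kinase that inhibits eEF2, measured 1.94, 1.89, 1.87 and 1.83 CPM under DMSO and 1.95, 1.77, 1.92 and 2.42 CPM under PR-957, and was not called (0.09, adjusted p = 0.745), with counts that are uncertain as stated above. Its log2 ratio to EEF2 was higher by 0.92 (exact permutation test, p = 0.0286, adjusted p = 0.04), in which the change of EEF2 itself was -0.84. EEF1D, likewise uncertain, was not called (0.10, adjusted p = 0.754). The log2 ratio of EIF1 to EIF1B, the remaining pair, fell from 4.06 ± 0.0123 to 3.47 ± 0.155 (SD, n = 4), a difference of -0.59 (exact permutation test, p = 0.0286, adjusted p = 0.04).

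Release and recycling factors changed least. GSPT1, the GTPase of translation termination, measured 192, 196, 198 and 175 CPM under DMSO and 180.2, 189, 178 and 180.1 CPM under PR-957, and was not called (-0.06 ± 0.054, adjusted p = 0.347). ETF1, the release factor that reads stop codons, was not called either (0.09, adjusted p = 0.16), except with library totals alone (0.17, adjusted p = 0.012). ABCE1, which splits the ribosome after release, measured 229.8, 227, 229.6 and 209 CPM under DMSO and 198, 213, 208 and 196 CPM under PR-957, and the groups overlapped. It was lower by 0.14 ± 0.053 (adjusted p = 0.0445). That call was lost with library totals alone (-0.06, adjusted p = 0.363), with all genes kept (0.0726), in replicates 1 and 2 alone (0.0504), in replicates 3 and 4 alone (0.239), and on leaving out DMSO replicate 1 (0.103), 2 (0.094) or 3 (0.102) or PR-957 replicate 1 (0.0764), 3 (0.0722) or 4 (0.0948). In the fits that left out 1 of these libraries its log2 fold change ran from -0.15 to -0.12.

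As a share of all counts, the members together took 6.20%, 6.15%, 6.23% and 6.32% of DMSO libraries and 4.84%, 5.06%, 4.80% and 4.56% of PR-957 libraries. EEF1A1 alone held 3.58% ± 0.0814 in DMSO and 2.63% ± 0.176 in PR-957 libraries (SD, n = 4). Without EEF1A1 the remaining members held 2.65% ± 0.0133 and 2.19% ± 0.0353. The elongation group went from 4.68% ± 0.0914 to 3.41% ± 0.206 and eIF3 from 0.696% ± 0.0136 to 0.575% ± 0.0112. The eIF2 and eIF2B genes went from 0.165% ± 0.00513 to 0.145% ± 0.00404, and the scanning factors from 0.236% ± 0.00315 to 0.219% ± 0.011. The eIF4 group held 0.396% ± 0.00964 and 0.409% ± 0.0101. The 13 mitochondrially encoded genes took 1.94% to 2.75% of DMSO libraries and 4.15% to 5.24% of PR-957 libraries, and 87 cytosolic ribosomal protein genes took 17.8% to 19.1% and 13.8% to 15.6%. When both sets were left out of the total, all members went from 7.88% to 5.97%, and the eIF4 group held 0.501% and 0.507%. A share falls where other transcripts rise, so these values are relative. No test was run on them.

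**Figure D5:**
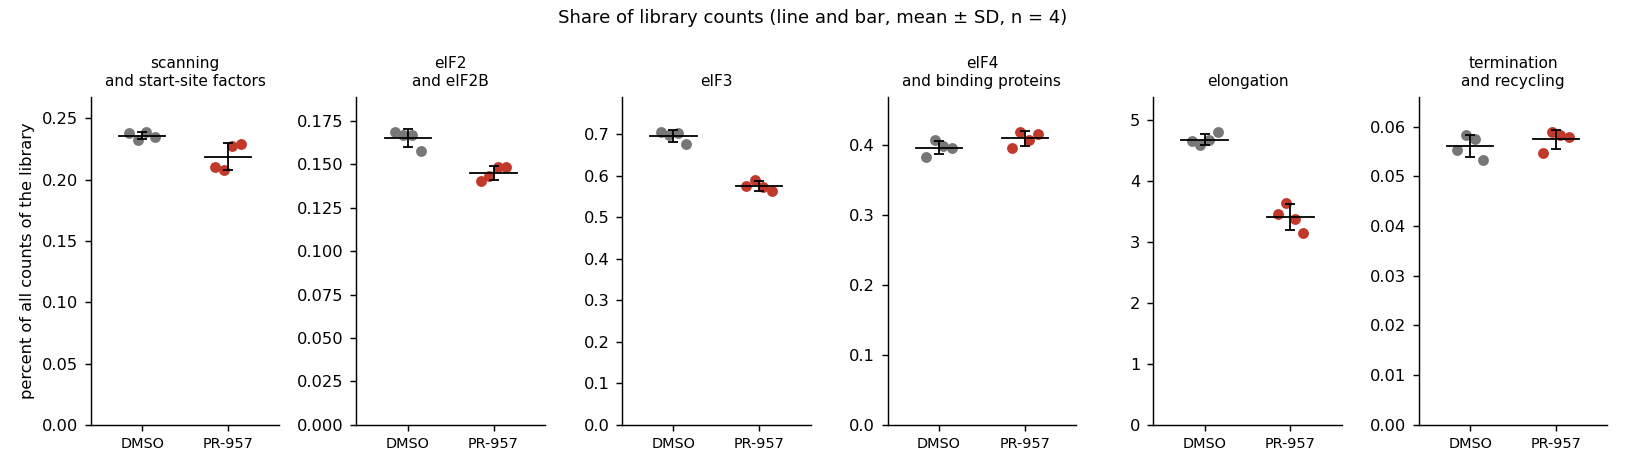
Percent of all counts of a library (vertical axis, from 0) held by each functional group in 4 DMSO (gray) and 4 PR-957 (red) libraries, with the mean and SD in black. The shares of eIF3 and of the elongation genes do not overlap between the groups, and those of the eIF4 group and of termination and recycling do.

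Across the 49 tested members the log2 fold change was lower in more abundant mRNAs, with a Pearson r of -0.39 and a Spearman rho of -0.42 against the mean log2 CPM. Over all 13179 tested genes these were -0.04 and -0.03. Against the log2 of exon length r was 0.28 and rho 0.24 over the members, and -0.09 and -0.10 over all tested genes. These are descriptions across genes measured in the same 8 libraries, and genes are not independent replicates.

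Further genes of translation, taken from lists of their own, were read in the same fit. Over all tested genes, the background for each list below, 23.1% were higher and 23.5% lower, so 46.6% were called. The share called was 56.25% of the further initiation list, 68.75% of the elongation list and 66.7% of the rescue list. It was 44.4% of the mitochondrial list, 55.6% of the mTOR and MNK list and 86.7% of the classical TOP list. Of 16 further initiation factors and cap or tail binding proteins 4 were higher and 5 lower, and their median was -0.12 on the log2 scale. Without DMSO replicate 4, 8 of them were lower. The largest decrease was in EIF3C, the remaining core subunit of eIF3, at -0.95 (adjusted p = 4.4e-06), and the largest increase in EIF5AL1, a copy of EIF5A, at 1.05 (adjusted p = 0.000788). EIF3C shares its sequence with EIF3CL and EIF5AL1 with EIF5A, and fragments that fit both copies were not counted, so both values are uncertain. Of 16 tested elongation factors and modifying enzymes 4 were higher and 7 lower, with a median of -0.18, and without PR-957 replicate 2, or in replicates 3 and 4 alone, 2 were higher. EEF1A2, the tissue-restricted paralog of EEF1A1, went from 33 ± 4.22 to 11.8 ± 1.34 CPM, which is -1.49 on the log2 scale (adjusted p = 1.05e-09). DOHH, the second enzyme of hypusine synthesis, rose from 31.5 ± 2.00 to 48.5 ± 3.41 CPM (0.63, adjusted p = 6.48e-07). DHPS, the enzyme before it, was lower at -0.25 (adjusted p = 0.00134), and was chosen for mention after its value was seen.

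Of 9 ribosome rescue and further release factors 4 were higher and 2 lower. Only 2 were higher when DMSO replicate 2 or PR-957 replicate 1, 3 or 4 was left out and in replicates 1 and 2 alone, and 1 was higher and 1 lower in replicates 3 and 4 alone. GSPT2, the paralog of GSPT1, was higher by 0.82 (adjusted p = 0.0332) at only 1.76 ± 0.747 CPM under DMSO and 3.16 ± 1.03 CPM under PR-957, which overlapped. That call was lost without DMSO replicate 1 (adjusted p = 0.0916) or 2 (0.0928), without PR-957 replicate 1 (0.0572), 3 (0.0839) or 4 (0.113), and in replicates 3 and 4 alone (0.0568), with log2 fold changes from 0.62 to 0.85. N6AMT1, part of the methyltransferase that modifies ETF1, was lower by 0.48 (adjusted p = 0.000541), and in replicates 3 and 4 alone by 0.34 (adjusted p = 0.0627). Of 9 tested mitochondrial translation factors 2 were higher and 2 lower, led by TSFM at 0.31 (adjusted p = 0.012) and MRRF at -0.28 (adjusted p = 0.000367). TSFM was not called in replicates 3 and 4 alone (adjusted p = 0.147). With library totals alone 4 genes of this list were higher and 1 lower, in replicates 3 and 4 alone 1 and 1, and in replicates 1 and 2 alone, or without PR-957 replicate 3, 1 was lower.

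Of 9 genes of mTOR and MNK signalling to translation 3 were higher and 2 lower, with 1 lower in replicates 3 and 4 alone. MTOR, the kinase, rose from 53.4 ± 2.90 to 79.7 ± 5.45 CPM (0.58 ± 0.063, adjusted p = 4.61e-07), and MLST8, a subunit of both mTOR complexes, fell from 78.7 ± 7.39 to 51.3 ± 2.40 CPM (-0.61 ± 0.067, adjusted p = 5.04e-07). A list of classical TOP mRNAs other than ribosomal protein genes held 16 genes, 10 of them members. Of its 15 tested genes 13 were lower and 0 higher, with a median of -0.43 and with EEF2 as the largest decrease, but 1 gene, VIM, was called higher without DMSO replicate 4 and in replicates 1 and 2 alone. Among the 6 that are not members, 5 were lower, namely RACK1 (-0.68), TPT1 (-0.46), PABPC1 (-0.44), NAP1L1 (-0.44) and HNRNPA1 (-0.26). The sixth, VIM, which encodes the filament protein vimentin, measured 397, 381, 409.6 and 751 CPM under DMSO and 604, 574, 559.5 and 537.5 CPM under PR-957, so that DMSO replicate 4 alone lay above the PR-957 libraries. VIM was not called over all libraries (0.23, adjusted p = 0.477), whereas it was higher without DMSO replicate 4 (0.52, adjusted p = 7.71e-08) and in replicates 1 and 2 alone (0.60, adjusted p = 1.31e-10), opposite to the other called genes of the list.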

How the data were processed

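Per the file headers, the authors counted fragments per gene with featureCounts 2.0.1 on hg38 NCBI RefSeq models, for pairs with both ends mapped and on the reverse strand, without options for fragments that map to several places or several genes. The submitters' processing notes name Trimmomatic 0.39, STAR 2.7.10a and DESeq2. No source used here states whether the kit kept strand, so for 13 members with an antisense gene the reads of both cannot be told apart if it did not. The deposited values were raw counts of 8 libraries. The header named 16, and the remaining ones were not analysed here. A second deposited table held only the authors' own DESeq2 comparison (mean, log2 fold change, SE, p-values) and was not used. Another 6 rows without values were left out.

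Groups and replicate numbers came from the sample titles, and nothing there says that replicates were separate cultures, so p-values measure the spread between these samples, which may be technical. Counts were compared in edgeR 4.0.16 under R 4.3.3 by a quasi-likelihood fit (robust, no covariate, all 8 libraries), with TMM scaling and filterByExpr, which kept 13179 genes, and Benjamini-Hochberg adjustment over all of them. The fit was tested on simulated data. CPM are TMM-normalised, and SE is the absolute log2 fold change over the root of F. Ratios used counts plus 0.5 and a two-sided exact permutation test over 70 splits, with adjustment over 7 ratios. The ratio of EIF4A1 to EIF4A2 could not be given. A count of 0 allows up to 3 counts, which is 0.13 to 0.18 CPM by library and covers counting error only. No pair of libraries was a duplicate (lowest chi-square per gene 3.29).

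Start windows came from RefSeq (GRCh38.p14, 250 bases before to 50 after the start). A gene with several windows was put in the pyrimidine class if any of them fitted, and for some genes the RefSeq start differs from that of the counted gene model. Members and lists were chosen with earlier results of these data known, as was the start motif. Values per library are given for the 2 largest increases and 2 largest decreases past the threshold in each group and for 14 members whatever their result (EIF2S1, EIF2B5, EIF4E, EIF4EBP1, EIF4EBP2, EIF4G1, EIF4A1, EIF5A, EEF1A1, EEF2, EEF2K, EIF6, GSPT1 and ABCE1), members whose call depends on an alternative are named, and each further list gives its largest change in each direction. Any other gene was chosen after its values were seen. METTL13 and MTRFR were listed but had no row under these symbols. Alternatives were RLE, upper-quartile and library-total scaling, DESeq2 1.42.0, limma-voom (limma 3.58.1), other filters, a replicate block, a term for replicates 1 and 2 against 3 and 4, each of these pairs alone, each library left out, and, after seeing the data, other lengths of the pyrimidine run.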

Additional observations from a re-analysis of the deposited data

Results flagged for a closer look

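Among 112 groups of 4 libraries looked at (2 for each tested member and each ratio), 8 held a library whose gap to its nearest neighbour, as a share of the group's range, passed Dixon's 95% limit. Chance alone flags about 1 in 20 such groups. EEF1A1 was lowest in DMSO replicate 2, at 35481 CPM against 37233 to 37375 CPM in the rest (share 0.925). DMSO replicate 4 was lowest for EIF2B5 (71.2 against 77.9 to 78.7 CPM, share 0.896) and for ABCE1 (209 against 227 to 229.8 CPM, share 0.872). PR-957 replicate 3 was lowest for EIF4E2 (87.8 against 92.4 to 92.9 CPM, share 0.905) and EIF4A2 (409.7 against 424 to 426 CPM, share 0.842). PR-957 replicate 4 was lowest for EIF2B3 (39.0 against 43.0 to 43.7 CPM, share 0.854). PR-957 replicate 1 was highest for EIF1B (56.0 against 44.7 to 46.4 CPM, share 0.846). In PR-957 replicate 2 the log2 ratio of EIF4E to EIF4E2 was -0.20 against -0.25 to -0.24 in the rest (share 0.95).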

How the results depend on the processing

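Of 36 members called, 28 kept their call under all 20 alternative fits, 8 lost it under at least 1 and 0 turned direction. With library totals alone, the median log2 fold change was -0.039 for the scanning factors, 0.22 for eIF2 and eIF2B, -0.31 for eIF3, 0.16 for eIF4, -0.072 for elongation and 0.015 for termination and recycling, where 1 gene was called higher and 0 lower, and MCTS1 and GSPT1, which were not called, turned to 0.0070 and 0.015. The termination and recycling group also had 0 genes called lower without a filter on low counts, in replicates 1 and 2 alone and in replicates 3 and 4 alone, and between 0 and 1 when single libraries were left out. Without that filter the elongation median was 0.088, since EEF1B2 with at most 2 counts a library then enters. In replicates 1 and 2 alone the medians were -0.31 for eIF3 and 0.13 for eIF4, the log2 ratio of EIF1 to EIF1B differed by -0.71 and that of EEF2K to EEF2 by 0.72, and EEF2K was -0.042. In replicates 3 and 4 alone the medians were -0.19 for the scanning factors, -0.47 for eIF3, 0.11 for eIF4 and -0.41 for elongation, those ratios differed by -0.48 and 1.13, and EIF6 was -0.083, MCTS1 0.0046, EEF1D -0.34 and VIM -0.090. With single libraries left out, the median ran from -0.16 to -0.095 for the scanning factors, from 0.083 to 0.16 for eIF2 and eIF2B, from -0.29 (without PR-957 replicate 2) to -0.14 for elongation and from -0.11 (without DMSO replicate 4) to -0.045 for termination and recycling, EIF6 from -0.038 to 0.041, EEF1D from -0.17 to 0.22 and EEF2K from -0.0043 to 0.15, all of which were not called. Members called ran from 12 to 14 higher and from 18 to 23 lower in those fits. The cause of these shifts was not tested. With a replicate block 15 members were higher and 24 lower, and 3513 and 3400 of all genes. EIF1B, EIF3G and EIF3J, which were not called without the block, were then lower. Same-numbered libraries deviated together with correlations of 0.151, 0.213, 0.0985 and 0.198. PR-957 replicate 3 correlated more with DMSO replicate 4 (0.105) than with its own number (0.0985). All correlations of DMSO with PR-957 libraries within replicates 1 and 2, or within 3 and 4, were positive, from 0.0737 to 0.213. All those across these pairs were negative, from -0.187 to -0.0411. Deviations were taken from the group mean, so they sum to 0 in each group. Positive correlations within the pairs therefore push those across them below 0, and the negative signs are not a separate observation. With a term for these pairs 15 members were higher and 23 lower. The labels do not say what a number shares, so neither the block nor this term was used in the main fit. EEF1D and EEF2K had the widest standard errors of the tested members, 0.24 and 0.22 on the log2 scale, at the lowest counts, and low expression cannot be told apart here from fragments left uncounted at their second placement.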
